A study of Mus musculus with 8 samples.

Results

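The 10 genes described here belong to the Hippo pathway and its transcriptional arm: the angiomotins Amot, Amotl1 and Amotl2, the coactivators Yap1 and Wwtr1, the transcription factors Tead1, Tead2 and Tead4, and the kinases Lats1 and Lats2. They were picked by symbol from the 22987 genes listed at 1 locus, with their levels in both states already known, so their differences between states and between lines are given as a description, with no p-value for a single gene. Where the calls of a fit over all genes are counted among them, the share of all genes called stands beside the count. All 10 were found in each of the 8 libraries with status OK and passed the filter on low values (at least 1 FPKM in at least 4 libraries), although Lats2 passed it only through mEpiSC, where it was higher. Tead3, the remaining TEAD family gene, is not among the 10 and was tested with the other pathway genes.

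RNA came from mouse cells in 2 pluripotent states. Epiblast stem cells (mEpiSC), which stand for the primed epiblast after implantation, were grown with FGF2 at 10 ng/ml; replicate 1 is the line EpiSC5, replicates 2 and 3 are EpiSC7, and replicate 4 is EpiSC9. Embryonic stem cells (mESC), which stand for the naive inner cell mass, were grown with LIF at 1000 units/ml; the 4 libraries are from ESF122 (replicates 1 and 2) and ESF175/1 (replicates 3 and 4). All cells were kept in 20% serum replacement on irradiated embryonic fibroblasts, which were removed before extraction, and polyadenylated RNA was sequenced. The labels give no strain, sex or passage, and do not say whether libraries of 1 line are separate cultures, so any p-value measures only the spread between these libraries, which may be technical.

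As background, the Hippo pathway is a kinase relay: MST kinases with the adaptor SAV1 activate LATS kinases with the adaptor MOB1, and LATS kinases phosphorylate YAP and TAZ (the product of Wwtr1), which are then held in the cytoplasm and degraded. Unphosphorylated YAP and TAZ enter the nucleus and act through TEAD factors, which bind DNA but activate little on their own. Angiomotins are scaffolds of tight junctions and actin that bind YAP and TAZ directly and assist LATS. In the mouse blastocyst the same proteins part trophectoderm, where YAP and TEAD4 act in the nucleus, from inner cells, where angiomotin and LATS keep YAP out. RNA levels do not report phosphorylation or location.

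Levels are the deposited FPKM, fragments scaled to transcript length and to library size, so that genes can be compared per length. Each table lists 23699 entries, of which 10947 to 11524 reached 1 FPKM, and the deposited 95% intervals imply 24700000 to 38600000 fragments per library. The implied fragments were 59 to 319 for Tead4 and 27 to 1150 for Lats2, the 2 least covered genes, and 272 to 187078 for the other 8. Each difference is the mEpiSC mean minus the mESC mean of log2(FPKM + 1), and the added 1 shrinks the differences of scarce genes. State markers followed the labels: all 7 mESC markers were lower in mEpiSC, and 6 of 7 mEpiSC markers were higher (limma, Benjamini-Hochberg adjusted p under 0.05). Of the mESC markers 4 passed the filter only through mESC. The seventh mEpiSC marker, Pou3f1, was not called. On the second principal component (16.9% of the variance) both replicate 4 libraries stood apart from the other 6.

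Amot, the founding angiomotin and the YAP-binding scaffold of the inner cell mass (mm9 chromosome X, 141880967 to 141921589), differed most among the 10. It measured 538.9 FPKM in EpiSC5, 53.2 and 96.0 FPKM in the EpiSC7 libraries and 17.3 FPKM in EpiSC9, against 2.11 and 7.93 FPKM in the ESF122 libraries and 1.87 and 1.15 FPKM in those of ESF175/1. The states did not overlap, and the mEpiSC values themselves spread widely, with EpiSC5 highest and EpiSC9 lowest. The difference of the log2 means was 4.55 (SE 0.91). Without EpiSC5 it was 3.66, and without ESF122 replicate 2, the highest mESC library, it was 4.99.

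Amotl1, an angiomotin of junctions and the actin network (chromosome 9, 14346411 to 14419444), also stood higher in every mEpiSC library. It measured 14.6 FPKM in EpiSC5, 11.5 and 16.3 FPKM in EpiSC7 and 7.95 FPKM in EpiSC9, against 3.75 and 5.08 FPKM in ESF122 and 2.99 and 2.76 FPKM in ESF175/1. The spread within a state was small beside the gap between them, at 12.6 ± 3.67 FPKM in mEpiSC and 3.65 ± 1.05 FPKM in mESC (SD, n = 4 each), a log2 difference of 1.53 (SE 0.24). Amotl2, which is both an angiomotin and a known YAP target (chromosome 9, 102620134 to 102635747), was less clear. It measured 26.8 FPKM in EpiSC5, 13.8 and 29.4 FPKM in EpiSC7 and 31.0 FPKM in EpiSC9, against 11.7 and 20.3 FPKM in ESF122 and 7.40 and 7.68 FPKM in ESF175/1. Here the states overlapped, since EpiSC7 replicate 2 lay below ESF122 replicate 2, and the log2 difference was 1.09 (SE 0.34).

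The family thus had a different make-up in the 2 states. Summed over the 3 genes it reached 56.3 to 580.3 FPKM in mEpiSC, against 11.6 to 33.3 FPKM in mESC. Amotl2 supplied most of the sum in mESC, and Amot supplied most of it in EpiSC5 and EpiSC7. As shares of the summed FPKM, Amot made up 92.9% in EpiSC5, 67.8% and 67.7% in EpiSC7 and 30.7% in EpiSC9, against 9.93% to 23.8% in mESC. Amotl2 made up 4.62% to 55.2% in mEpiSC, with the highest share in EpiSC9, against 60.3% to 66.6% in mESC.

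**Figure D1:**
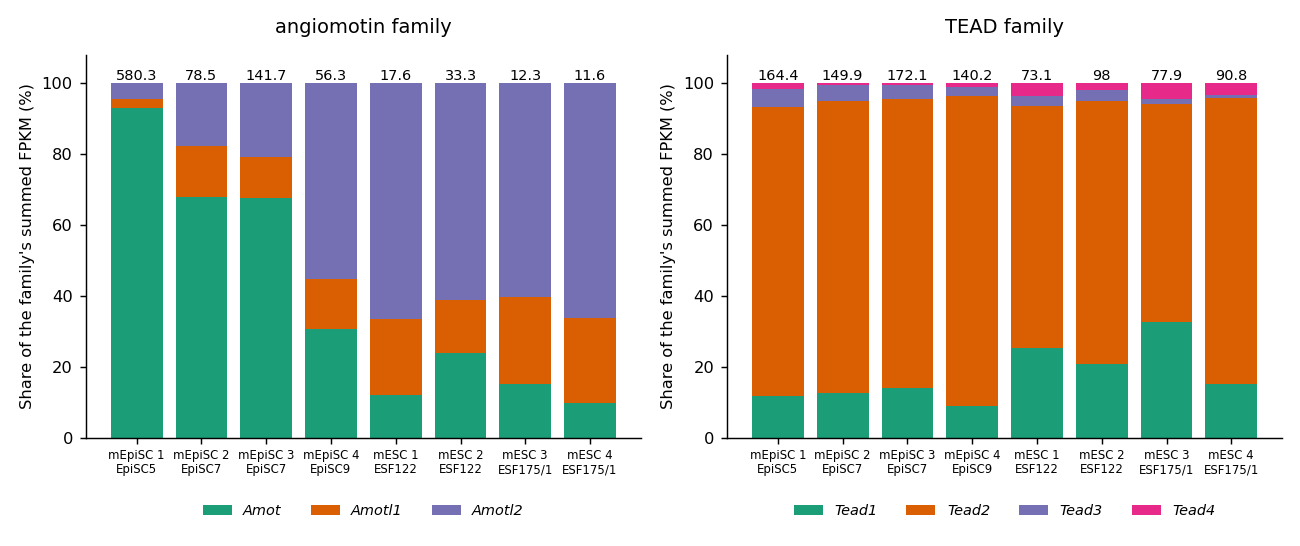
Share (%) of each gene in the summed FPKM of the angiomotin family (left) and of the TEAD family (right), 1 bar per library, with the sum in FPKM above each bar and the line under each library. Amot takes 30.7% to 92.9% of the angiomotin sum in mEpiSC and 9.93% to 23.8% in mESC, while Tead2 is the most abundant TEAD gene in all 8 libraries.

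Yap1, the coactivator that LATS kinases restrain (chromosome 9, 7932001 to 8004596), was abundant in both states and modestly higher in mEpiSC. It measured 70.2 FPKM in EpiSC5, 54.7 and 56.5 FPKM in EpiSC7 and 57.0 FPKM in EpiSC9, against 37.9 and 41.7 FPKM in ESF122 and 37.5 and 40.0 FPKM in ESF175/1. The groups did not overlap, and the mESC libraries lay within a few FPKM of each other. The log2 difference was 0.58 (SE 0.11). Wwtr1, which encodes the YAP paralog TAZ (chromosome 3, 57259566 to 57379832), measured 15.8 FPKM in EpiSC5, 15.1 and 14.3 FPKM in EpiSC7 and 25.2 FPKM in EpiSC9, against 8.63 and 9.55 FPKM in ESF122 and 6.66 and 6.63 FPKM in ESF175/1. The states did not overlap, with a log2 difference of 1.05 (SE 0.20), and EpiSC9 was highest. Yap1 exceeded Wwtr1 in every library: it held 69.3% to 81.6% of their summed FPKM in mEpiSC and 81.4% to 85.8% in mESC.

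Tead2, the TEAD factor of early embryonic cells (chromosome 7, 52471123 to 52488989), was the most abundant of the TEAD genes. It measured 134.0 FPKM in EpiSC5, 123.6 and 140.2 FPKM in EpiSC7 and 122.5 FPKM in EpiSC9, against 49.9 and 72.8 FPKM in ESF122 and 47.9 and 73.2 FPKM in ESF175/1. The 3 mEpiSC lines were close to each other and all above the mESC libraries, with a log2 difference of 1.11 (SE 0.17). Tead1, a broadly expressed TEAD factor (chromosome 7, 119822834 to 120050319), overlapped between states, at 12.5 to 24.1 FPKM in mEpiSC and 13.8 to 25.4 FPKM in mESC. Its log2 difference was −0.07 (95% interval −0.58 to 0.44), and the lowest value of each state was that of replicate 4.

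Tead4, the TEAD factor required for trophectoderm (chromosome 6, 128177161 to 128250831), was scarce in both states. It measured 2.93 FPKM in EpiSC5, 0.721 and 1.03 FPKM in EpiSC7 and 1.32 FPKM in EpiSC9, against 2.63 and 2.01 FPKM in ESF122 and 3.57 and 2.93 FPKM in ESF175/1. Only EpiSC5 among the mEpiSC libraries reached the mESC range. The log2 difference was −0.66 (SE 0.26), and it was −0.90 without EpiSC5. Of 8 trophoblast markers, Cdx2 measured at most 0.38 FPKM in mEpiSC and 0.615 FPKM in mESC, and Elf5 at most 0.109 FPKM in mEpiSC and 0.0513 FPKM in mESC. Among the mEpiSC libraries, EpiSC5 had the most Tead4 and the most Gata3, Krt7, Elf5 and Plac1 (4.84, 5.69, 0.109 and 0.294 FPKM). The other markers did not peak there: Cdx2, Hand1 and Ascl2 were highest in EpiSC9 (0.38, 0.311 and 2.32 FPKM) and Tfap2a in EpiSC7 (0.432 FPKM). Over all libraries Ascl2 was highest in mESC 1, at 6.20 FPKM. The 8 markers summed to 3.12 to 12.9 FPKM in mEpiSC, highest in EpiSC5, against 2.81 to 7.56 FPKM in mESC, and their part in the Tead4 level was not tested. Over the whole TEAD family, Tead3 included, Tead2 held 81.5% to 87.4% of the summed FPKM in mEpiSC and 61.5% to 80.6% in mESC, while Tead4 held 0.481% to 1.78% in mEpiSC and 2.05% to 4.58% in mESC.

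Of the kinases that phosphorylate YAP and TAZ, Lats1 (chromosome 10, 7401007 to 7436259) measured 10.7 FPKM in EpiSC5, 8.93 and 10.9 FPKM in EpiSC7 and 5.84 FPKM in EpiSC9, against 5.01 and 6.54 FPKM in ESF122 and 5.08 and 3.47 FPKM in ESF175/1. EpiSC9 lay inside the mESC range, so the states overlapped, and the log2 difference was 0.73 (SE 0.22). The lowest Lats1 value of each state was that of replicate 4. Lats2, itself a known YAP target (chromosome 14, 58308499 to 58364960), measured 3.75 FPKM in EpiSC5, 1.27 and 1.90 FPKM in EpiSC7 and 4.68 FPKM in EpiSC9, against 0.637 and 0.766 FPKM in ESF122 and 0.738 and 0.442 FPKM in ESF175/1. The states did not overlap (log2 difference 1.15, SE 0.28). Its level is uncertain, because 56.5% of the 50-base windows of its transcript also occur in the transcript Gm49361 of the same strand; the share was at most 1.65% for the other 9 genes. Lats1 held 55.5% to 87.6% of the summed FPKM of these kinases in mEpiSC and 87.3% to 89.5% in mESC, and the lowest share was again in EpiSC9.

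**Figure D2:**
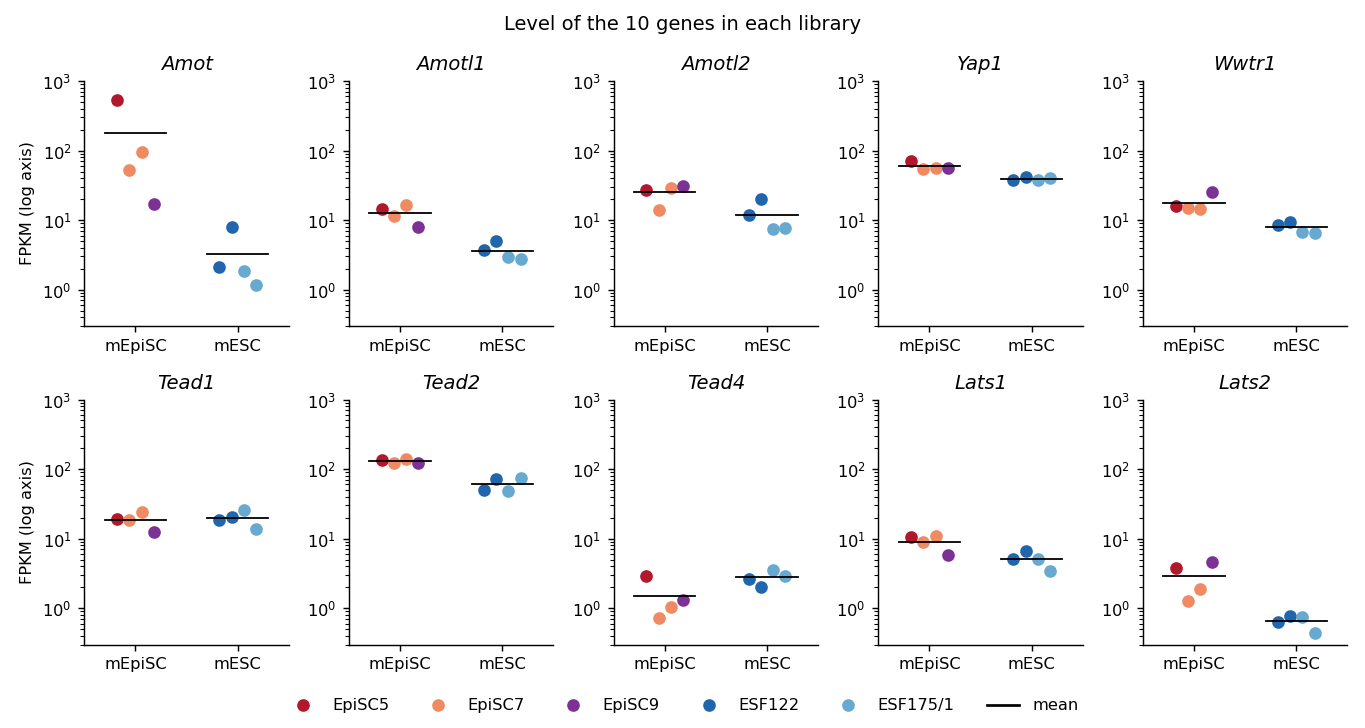
FPKM (log axis) of the 10 genes in the 4 mEpiSC and 4 mESC libraries; each point is 1 library, coloured by line, and the bar is the mean of the state. Amot spans 17.3 to 538.9 FPKM in mEpiSC and 1.15 to 7.93 FPKM in mESC, whereas Tead1 overlaps between the states.

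In the fit over 11556 genes (limma on log2(FPKM + 1)), 8 of the 10 genes were higher in mEpiSC at a Benjamini-Hochberg adjusted p under 0.05 and none was lower, beside 23.1% of all genes tested that were higher and 14.2% that were lower. Of all calls 61.9% were higher, against 47.7% with median ratio scaling. The 2 without a call were Tead1 and Tead4, and 6 of the 8 differed by at least 2-fold. Values did not overlap between states for 6 of the 10, all higher in mEpiSC, beside 22.2% of all genes that were so and 37.1% that did not overlap in either direction. Since the genes were chosen with this contrast known, these shares say nothing about the pathway. Lats2, whose call the filter favoured, is among the 8; without it 7 of 9 were higher. The median log2 difference was 1.07 over the 10 genes and 0.08 over all genes tested; median ratio scaling moved the median of all genes to −0.05. The call of Amotl2 was lost without mEpiSC 1, 3 or 4 or mESC 1, 3 or 4 (log2 0.92 to 1.12) and with the replicate number as a block (log2 1.09), and that of Lats1 without mEpiSC 1, 2 or 3 or mESC 1, 3 or 4 (log2 0.60 to 0.75) and with median ratio scaling or quantile normalization (log2 0.61 and 0.56). Both calls were also lost with line as a random block (log2 1.13 and 0.71), which left 6 of the 10 higher. The Lats1 call was kept with the replicate block (log2 0.73) and with replicates 1 to 3 only (log2 0.77). It was also kept without mEpiSC 4 (log2 0.91) and without mESC 2 (log2 0.85). With the libraries of each line averaged to 1 value, leaving 3 mEpiSC against 2 mESC lines, only Amotl1 and Tead2 of the 10 stayed called, although the log2 differences were close (4.63 for Amot, 0.61 for Yap1, 1.12 for Wwtr1).

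**Figure D3:**
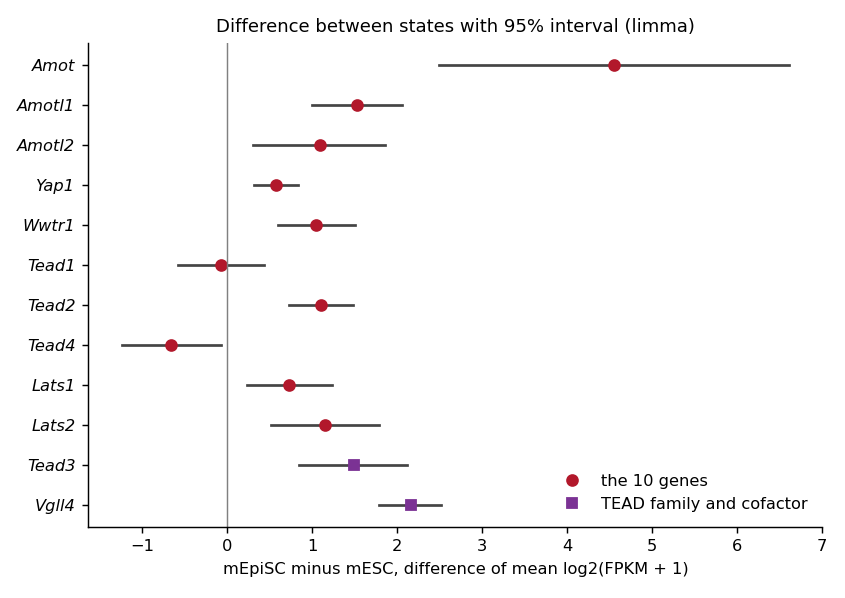
Difference between the state means of log2(FPKM + 1), mEpiSC minus mESC, with the 95% interval from limma (not adjusted over genes), for the 10 genes and for Tead3 and Vgll4. Amot lies at 4.55 with the widest interval, 2.49 to 6.61, and Tead1 at −0.07.

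The lines did not share 1 ranking. In mEpiSC, Amot ran from EpiSC5 (538.9 FPKM) through EpiSC7 (mean 74.6 FPKM) to EpiSC9 (17.3 FPKM), while Wwtr1 and Lats2 were highest in EpiSC9 and Tead4 in EpiSC5. Tead2 kept nearly the same level, at 134.0, 132 and 122.5 FPKM in the same order of lines. None of the 10 differed among the 3 lines by limma's F test at an adjusted p under 0.05, beside 2.6% of all genes. At an unadjusted p under 0.05 there were 4, beside 24.7% of all genes. EpiSC5 and EpiSC9 have 1 library each and were assumed to vary like the other lines. EpiSC9 is present only as replicate 4, and the replicate 4 libraries of both states stood apart on the second principal component. Line and replicate cannot be told apart for EpiSC9, nor for EpiSC5, which is present only as replicate 1. With a pseudocount of 5, 2 of the 10 passed the adjusted threshold of the F test. With quantile normalization 1 did, and without the variance trend 1 did.

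Between the mESC lines (ESF175/1 minus ESF122), none of the 10 passed limma at an adjusted p under 0.05, beside 0.762% of all genes. At an unadjusted p under 0.05 there were 2, beside 14.9% of all genes. The log2 differences were −0.47 for Amotl1, −0.95 for Amotl2, −0.40 for Wwtr1 and 0.36 for Tead4. Amot averaged 1.51 FPKM in ESF175/1 and 5.02 FPKM in ESF122, a log2 difference of −1.08 (SE 0.53). The ESF122 mean rests on replicate 2 (7.93 FPKM). Of the mEpiSC markers, T, a primitive streak factor, measured 38.8 FPKM in that library and 1.95 to 2.94 FPKM in the remaining mESC libraries. Fgf5, Cer1, Foxa2 and Fgf8 also had their highest mESC value there (8.61, 6.29, 3.95 and 21.6 FPKM). Otx2 and Pou3f1 did not, at 19.7 and 12.3 FPKM there against 27.4 and 15.7 FPKM in ESF122 replicate 1. Among the 10 genes, Amotl1, Amotl2, Yap1, Wwtr1, Lats1 and Lats2 were also highest in ESF122 replicate 2 within mESC, and Tead1, Tead2 and Tead4 were not. The part of cells with such markers in these values was not tested. In bulk RNA fewer cells of a type cannot be told apart from less RNA per cell.

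The genes whose profile over the 8 libraries was most like that of Amot were, by root mean square difference of centred log2(FPKM + 1), Lhx1 (0.605), Cer1 (0.756), Fgf5 (0.821), Flt1 (0.840) and Asb4 (0.859), out of 11518 genes with status OK throughout. The nearest of the other 9 Hippo genes, Amotl1, was at 1.88. This distance also counts the size of the changes. Amot ranged over 7.97 log2 units across the 8 libraries, and the other 9 genes over 0.89 (Yap1) to 2.2 (Amotl1). It therefore does not show whether these genes follow the order of Amot. Lhx1, a homeobox factor of the organizer, measured 93.8 FPKM in EpiSC5, 10.4 and 10.6 FPKM in EpiSC7 and 2.51 FPKM in EpiSC9, against 0.0214 to 1.51 FPKM in mESC. Cer1, a secreted antagonist of Nodal, BMP and Wnt proteins, measured 838.9 FPKM in EpiSC5, 87.4 and 121.8 FPKM in EpiSC7 and 33.8 FPKM in EpiSC9, against 0.0621 to 6.29 FPKM in mESC. Flt1, a VEGF receptor, had 45.8 FPKM in EpiSC5 and 3.75 FPKM in EpiSC9. In mEpiSC all 5 genes were highest in EpiSC5 and lowest in EpiSC9, as Amot was, and in mESC all 5 were highest in ESF122 replicate 2. The 5 were chosen by likeness to Amot over these same libraries, so the shared order follows from the choice and is no separate finding.

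**Figure D4:**
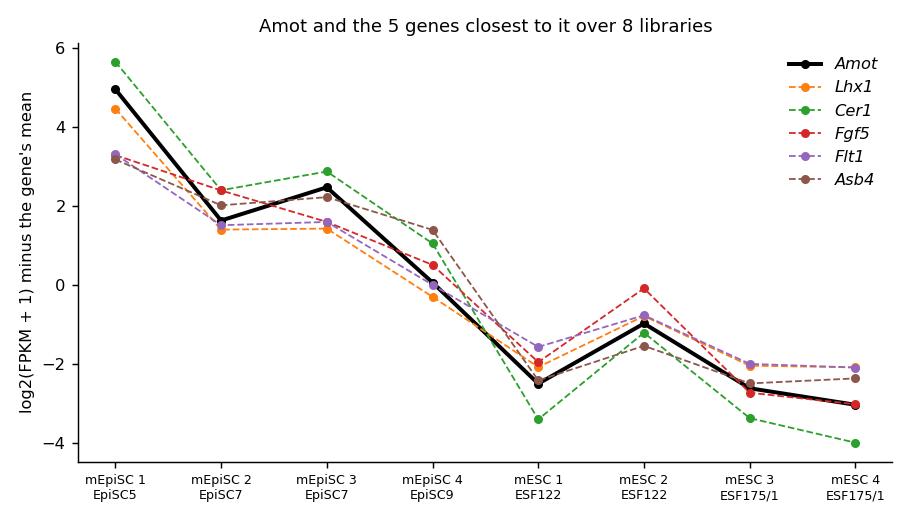
Amot (black) and the 5 genes closest to it, as log2(FPKM + 1) minus each gene's mean over the 8 libraries, by library and line; the lines between points only guide the eye. Each profile peaks in EpiSC5, and within mESC each is highest in ESF122 replicate 2, an order that the choice of genes by likeness favours.

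The sum of endoderm markers was also highest in EpiSC5 and lowest in EpiSC9. The 8 primitive endoderm markers summed to 231.0 FPKM in EpiSC5 and 47.9 to 79.7 FPKM in the other mEpiSC libraries, against 16.8 to 23.9 FPKM in mESC. In mESC both ESF122 libraries had 23.9 FPKM. Foxq1 made up 75.4 FPKM of the EpiSC5 sum, but 65.7% of its windows also occur in A530084C06Rik, so its level is uncertain. Sox7 was highest in EpiSC7 (0.919 FPKM), and Col4a1 was as high in EpiSC7 replicate 3 (27.3 FPKM) as in EpiSC5 (27.4 FPKM). In EpiSC5 the endoderm factors Gata6, Gata4 and Sox17 measured 26.4, 18.9 and 18.4 FPKM, above the 0.498 to 7.42 FPKM of these genes in the other mEpiSC libraries. Of the 8 markers 6 were tested and were higher in mEpiSC (limma, adjusted p under 0.05), beside 23.1% of all genes, but Gata6, Sox17 and Foxq1 passed the filter only through mEpiSC. The fibroblast marker sum, too, was highest in EpiSC5 and lowest in EpiSC9 among mEpiSC libraries (538.6 and 68.9 FPKM). Across the states the order differed, since ESF122 replicate 1 had a sum of 296.0 FPKM with 2.11 FPKM of Amot. The part of either cell type in the level of Amot was not tested.

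Outside the 10 genes, Tead3 of the TEAD family and the TEAD cofactors Vgll1 to Vgll4 made a list of 5, of which 2 were tested. Both, Tead3 and Vgll4, were higher in mEpiSC (limma, adjusted p under 0.05), beside 23.1% of all genes higher. Tead3, a TEAD factor best known from the placenta (chromosome 17, 28468618 to 28487750), measured 8.32 FPKM in EpiSC5, 6.81 and 6.77 FPKM in EpiSC7 and 3.81 FPKM in EpiSC9, against 2.03 and 2.84 FPKM in ESF122 and 1.03 and 0.880 FPKM in ESF175/1. The states did not overlap (log2 1.49, SE 0.28; limma, adjusted p = 0.00391; 0.0657 with 1 mean per line). Vgll4, a cofactor that competes with YAP for TEAD, measured 7.58 FPKM in EpiSC5, 7.61 and 9.40 FPKM in EpiSC7 and 10.9 FPKM in EpiSC9, against 0.838 to 1.41 FPKM in mESC. It was the clearest of these differences (log2 2.16, SE 0.16; limma, adjusted p = 4.13e-05; 0.00778 with 1 mean per line). Vgll1 was listed at 0 in every mEpiSC library and at 0.0148 to 0.165 FPKM in mESC, Vgll2 was below 0.05 FPKM throughout, and Vgll3 measured 0.536 to 2.21 FPKM in mEpiSC against 0.195 to 0.737 FPKM in mESC; these 3 were not tested.

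The sequence before the transcription start is shown for 4 genes that were higher in mEpiSC and hold the TEAD core motif GGAATG, for the YAP target Cyr61, and for Amot, which differed most and does not hold it. They are the 250 bases before the start in RefSeq (GRCm38.p6, another build than the mm9 of the values), written 5′ to 3′ along the gene's strand, with the motif in capitals; it reads CATTCC where it lies on the opposite strand. The windows are chrX:145487640-145487889 (minus strand) for Amot, chr9:102717554-102717803 (plus strand) for Amotl2, chr9:8004597-8004846 (minus strand) for Yap1, chr3:57575911-57576160 (minus strand) for the first of the Wwtr1 starts, chr6:114969204-114969453 (minus strand) for Vgll4 and chr3:145649986-145650235 (minus strand) for Cyr61, named Ccn1 there.
Amot: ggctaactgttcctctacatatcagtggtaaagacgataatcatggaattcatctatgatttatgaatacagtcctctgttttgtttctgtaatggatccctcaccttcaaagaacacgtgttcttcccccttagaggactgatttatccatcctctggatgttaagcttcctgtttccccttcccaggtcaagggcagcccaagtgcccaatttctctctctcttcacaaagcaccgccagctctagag
Amotl2: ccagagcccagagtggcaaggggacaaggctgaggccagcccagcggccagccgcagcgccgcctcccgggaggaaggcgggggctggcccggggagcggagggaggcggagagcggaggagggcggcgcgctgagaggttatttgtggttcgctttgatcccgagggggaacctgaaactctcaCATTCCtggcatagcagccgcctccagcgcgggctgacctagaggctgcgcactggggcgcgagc
Yap1: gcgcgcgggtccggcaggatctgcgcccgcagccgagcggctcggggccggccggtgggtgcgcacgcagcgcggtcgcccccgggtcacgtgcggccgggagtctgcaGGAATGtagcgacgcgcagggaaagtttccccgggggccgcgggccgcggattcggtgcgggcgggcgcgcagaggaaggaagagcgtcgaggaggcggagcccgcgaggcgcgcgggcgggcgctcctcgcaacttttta
Wwtr1: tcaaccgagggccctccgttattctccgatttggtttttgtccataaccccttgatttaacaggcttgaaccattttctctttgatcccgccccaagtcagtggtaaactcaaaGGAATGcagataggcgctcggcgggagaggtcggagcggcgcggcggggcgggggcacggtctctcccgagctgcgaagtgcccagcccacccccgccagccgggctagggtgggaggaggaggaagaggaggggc
Vgll4: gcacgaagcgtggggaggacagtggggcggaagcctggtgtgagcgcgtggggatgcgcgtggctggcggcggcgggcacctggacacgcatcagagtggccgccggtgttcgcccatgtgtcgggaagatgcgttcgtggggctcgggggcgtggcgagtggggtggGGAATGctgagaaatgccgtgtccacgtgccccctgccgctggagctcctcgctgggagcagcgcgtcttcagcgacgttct
Cyr61: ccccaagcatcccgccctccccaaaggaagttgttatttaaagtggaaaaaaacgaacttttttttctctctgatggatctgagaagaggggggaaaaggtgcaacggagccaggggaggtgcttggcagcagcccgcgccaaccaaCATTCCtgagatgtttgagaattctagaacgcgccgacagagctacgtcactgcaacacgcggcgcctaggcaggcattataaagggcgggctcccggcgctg

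Of the 10 genes 8 had such a window, and 3 of the 8 held the motif on either strand: Amotl2, Yap1 and Wwtr1, with the first base of the motif at −65, −141 and −136 from the start. Tead1 and Tead4 had none in the table. Amot, Amotl1, Tead2, Lats1 and Lats2, also called higher in mEpiSC, did not hold it. Of all 27025 genes with a window 3880 (14.4%) held it, and of the 13 target genes below that had one 5 held it. Of the 5 genes listed as Tead3 and the TEAD cofactors 4 held it, among them Tead3, whose sequence is not shown. A match is a string of letters and does not show binding.

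Genes that YAP, TAZ and TEAD are known to activate were higher in mEpiSC in part. Of a signature of 20 targets besides Amotl2 and Lats2, 16 were tested, 8 were higher and none was lower (limma, adjusted p under 0.05), beside 23.1% of all genes higher and 37.3% called either way. The median log2 difference was 1.01, beside 0.08 over all genes tested. Tgfb2 passed the filter only through mEpiSC, and without it 7 of 15 were higher. Cyr61, a matricellular protein and the most abundant of them in mEpiSC (chromosome 3, 145309935 to 145312949), measured 239.5 FPKM in EpiSC5, 97.5 and 145.2 FPKM in EpiSC7 and 243.4 FPKM in EpiSC9, against 17.8 and 61.6 FPKM in ESF122 and 10.6 and 13.4 FPKM in ESF175/1. The states did not overlap (log2 3.02, SE 0.52; limma, adjusted p = 0.00244). Ctgf, its relative, measured 61.3 FPKM in EpiSC5, 35.5 and 52.8 FPKM in EpiSC7 and 116.6 FPKM in EpiSC9, against 14.1 and 28.2 FPKM in ESF122 and 11.3 and 10.6 FPKM in ESF175/1 (log2 1.96, SE 0.39; adjusted p = 0.00472 by limma). Without stated strand its level may include the antisense Gm15270, which overlaps 23.2% of its exonic bases.

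Igfbp3, a binding protein of insulin-like growth factors, averaged 86.7 ± 67.4 FPKM in mEpiSC and 9.81 ± 3.97 FPKM in mESC (log2 2.83, SE 0.44), with EpiSC5 highest at 187.2 FPKM. Tgfb2, a TGF-beta ligand, averaged 7.07 ± 6.26 FPKM in mEpiSC and 0.183 ± 0.124 FPKM in mESC (log2 2.45, SE 0.47). Fjx1, a kinase-like protein of the Golgi related to the fly protein four-jointed, averaged 10.9 ± 1.55 FPKM in mEpiSC and 2.88 ± 1.21 FPKM in mESC (log2 1.66, SE 0.22). The kinase Nuak2 averaged 5.29 ± 2.53 FPKM in mEpiSC and 1.52 ± 0.221 FPKM in mESC (log2 1.22, SE 0.30). The receptor kinase Axl, also among the 8 (log2 1.30), was named after its values were seen. Gadd45a, a stress-induced gene, went the other way without passing the test, at 15.8 ± 6.76 FPKM in mEpiSC and 32.5 ± 15.1 FPKM in mESC (95% interval of the log2 difference −1.80 to −0.21, not adjusted over genes; limma, adjusted p = 0.051). It passed without mEpiSC 3, mEpiSC 4 or mESC 2 (limma, adjusted p = 0.039, 0.0403 and 0.0442) and with the replicate number as a block (0.0151). With 1 mean per line, 5 targets were higher.

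Feeder fibroblasts express many of these targets, and their markers differed between libraries. Of 14 fibroblast markers, all 14 reached 1 FPKM in each mEpiSC library, and 14, 10, 10 and 3 did in mESC 1 to 4. They summed to 538.6 FPKM in EpiSC5, 293.8 and 173.7 FPKM in EpiSC7 and 68.9 FPKM in EpiSC9, against 296.0 and 39.6 FPKM in ESF122 and 56.1 and 8.23 FPKM in ESF175/1. Of the 14, 4 were higher in mEpiSC and none was lower (limma, adjusted p under 0.05). That is a share of 28.6%, beside 23.1% of all genes called higher and 37.3% called either way. The log2 differences of the 14 ran from 0.51 to 2.13. Their median was 1.35, beside 1.01 over the targets tested and 0.08 over all genes tested. Of the 8 called targets, 4 were highest in EpiSC5, the mEpiSC library with the highest marker sum, among them Igfbp3 (187.2 FPKM), Tgfb2 (15.8 FPKM) and Axl (6.27 FPKM). Another 3, Cyr61, Ctgf and Nuak2, were highest in EpiSC9, where the sum was lowest, and the last of the 8 was highest in EpiSC7. Single fibroblast markers did not all follow the sum. Among mEpiSC libraries Twist1 was highest in EpiSC9 (5.1 FPKM). Pdgfrb, Fbn1 and Loxl1 were lowest in EpiSC7 replicate 3 (1.55, 5.24 and 2.68 FPKM) and measured 3.2, 5.59 and 2.69 FPKM in EpiSC9. The other markers were lowest in EpiSC9. In ESF122 replicate 1, with a sum of 296.0 FPKM, Cyr61 and Ctgf stood at 17.8 and 14.1 FPKM. The part of feeder cells in the target levels was not tested.

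**Figure D5:**
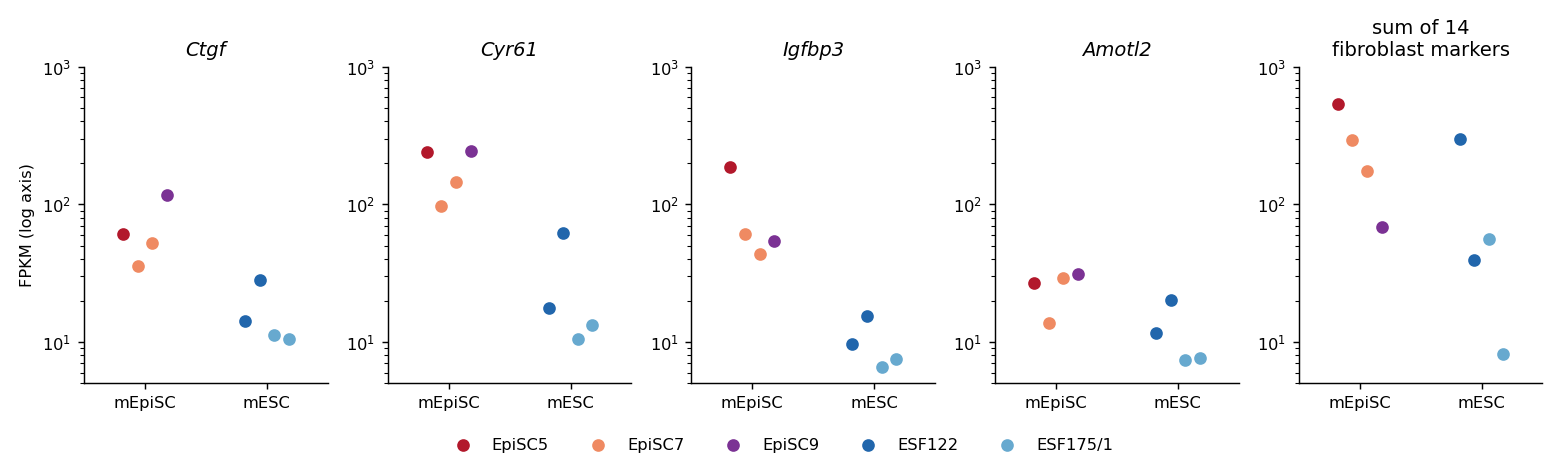
FPKM (log axis) of the targets Ctgf, Cyr61, Igfbp3 and Amotl2 and the summed FPKM of 14 fibroblast markers in the 4 mEpiSC and 4 mESC libraries, coloured by line. EpiSC5 has the highest Igfbp3 (187.2 FPKM) and the highest fibroblast sum (538.6 FPKM) of all 8 libraries. EpiSC9 has the highest Ctgf, Cyr61 and Amotl2 at a fibroblast sum of 68.9 FPKM. ESF122 replicate 1 has 296.0 FPKM of markers with Cyr61 at 17.8 FPKM. The part of feeder cells in the target levels was not tested.

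Most genes of the upstream arm did not pass the test. Of 44 listed kinases, adaptors and upstream regulators 39 were tested, of which 8 were higher and 3 lower (limma, adjusted p under 0.05), a share of 28.2% beside 37.3% of all genes. With line as a random block 4 were higher and 1 lower, and with 1 mean per line 1 was higher and none lower. The lower genes were Stk4, which encodes the Hippo kinase MST1, and Stk38 and Stk38l, which encode the LATS-related NDR kinases; Stk4 and Stk38l were named after their values were seen. Stk38 averaged 24.4 ± 5.21 FPKM in mEpiSC and 39.9 ± 7.95 FPKM in mESC (log2 −0.69, SE 0.20; limma, adjusted p = 0.0268). Its call was lost without mEpiSC 3 or mESC 1, 2 or 3 (limma, adjusted p = 0.0514 to 0.0785), with line as a random block (0.0791) and with 1 mean per line (0.115). Stk4 averaged 17.0 ± 1.54 FPKM in mEpiSC and 24.8 ± 1.65 FPKM in mESC (log2 −0.52, SE 0.11). On the log2(FPKM + 1) scale only Dchs1, a giant protocadherin, and Rassf4, of the RASSF adaptors, were higher by at least 2-fold (log2 1.45 and 1.19). Both had a mean under 3 FPKM, were in the test only through mEpiSC, and were named after their values were seen. Rassf2, also named so, was called higher at log2 0.92, where the ratio of its mean FPKM was 2.42. Without Dchs1 and Rassf4, 6 of 37 regulators were higher.

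Several abundant regulators did not pass the test. Mob1a, the LATS adaptor, averaged 31.2 ± 2.53 FPKM in mEpiSC and 34.9 ± 10.7 FPKM in mESC, and Map4k4, a kinase that can act on LATS beside MST, averaged 51.2 ± 12.2 FPKM in mEpiSC and 41.6 ± 9.52 FPKM in mESC. Ajuba, a LIM protein that restrains LATS, measured 34.4 FPKM in EpiSC5, 74.9 and 125.8 FPKM in EpiSC7 and 46.9 FPKM in EpiSC9, against 31.2 to 42.1 FPKM in mESC (log2 0.73, SE 0.35; limma, adjusted p = 0.127). Without EpiSC5 it passed (log2 1.02; limma, adjusted p = 0.0329).

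Among 19 genes for partners of angiomotins, 5 were higher and 2 lower (limma, adjusted p under 0.05), a share of 36.8% beside 37.3% of all genes. With line as a random block 4 were higher and 1 lower, and with 1 mean per line 1 was higher and none lower. Tnks, the tankyrase that marks angiomotins for degradation, measured 53.4 FPKM in EpiSC5, 23.8 and 34.7 FPKM in EpiSC7 and 22.6 FPKM in EpiSC9, against 14.5 to 15.2 FPKM in mESC. The states did not overlap (log2 1.04, SE 0.24; limma, adjusted p = 0.0103; 0.108 with 1 mean per line). Its paralog Tnks2 measured 76.5 to 110.3 FPKM in mEpiSC and 76.4 to 80.8 FPKM in mESC and did not pass. Rnf146, the ubiquitin ligase that acts after tankyrase, was higher by log2 0.51 (SE 0.11), but 76.5% of its windows occur in Echdc1, so its level is uncertain. Usp9x, a deubiquitinase that acts on angiomotin (chromosome X), averaged 32.3 ± 4.51 FPKM in mEpiSC and 45.3 ± 5.85 FPKM in mESC (log2 −0.48, SE 0.14; limma, adjusted p = 0.0276). That call was lost without mEpiSC 1 or 2 or mESC 1, 2 or 3 (limma, adjusted p = 0.0511 to 0.0823), with quantile normalization (0.0586), with line as a random block (0.0856) and with 1 mean per line (0.105).

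The list also holds scaffolds of cell polarity and tight junctions. Mpdz averaged 11.3 ± 2.42 FPKM in mEpiSC and 4.78 ± 3.49 FPKM in mESC (log2 1.25, SE 0.36), a call lost without mEpiSC 1, 2 or 3 or mESC 3 or 4 (limma, adjusted p = 0.0535 to 0.0684), with line as a random block (0.0581) and with 1 mean per line (0.108). Lin7c averaged 58.0 ± 3.13 FPKM in mEpiSC and 41.5 ± 4.99 FPKM in mESC (log2 0.48, SE 0.12; limma, adjusted p = 0.0115; 0.0652 with median ratio scaling and 0.0995 with 1 mean per line). Inadl, Pard3, Crb3 and Prkci, polarity genes named after their values were seen, did not pass (log2 0.49, 0.24, −0.72 and −0.26). Mpp5, which encodes PALS1, was higher by log2 0.96 (SE 0.16), and the ubiquitin ligase Wwp2 was lower, with a log2 difference of −0.62 (SE 0.14); these 2 and Rnf146 were named after their values were seen. Nedd4, the most abundant gene of the list and a ubiquitin ligase that acts on angiomotins, averaged 350.3 ± 66.1 FPKM in mEpiSC and 286.7 ± 18.4 FPKM in mESC and did not pass (log2 0.27, SE 0.15).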

How the data were processed

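Polyadenylated RNA of 8 libraries was prepared with an Illumina TruSeq kit, per the labels' protocols. The deposited values are FPKM per gene with a 95% interval, made by the authors with TopHat2 2.0.6 and Cufflinks 2.0.2 on mm9, per the submitters' processing notes; of annotation, options and strand the sources used here say nothing. There is 1 table per library, with 0 per-sample value columns left unmapped. Count tests were not applied to FPKM. Symbols at several loci (248) were left out. Locus starts were moved by 1 to count from 1.

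In R 4.3.3, limma 3.58.1 with a variance trend and robust moderation (statmod 1.5.0) was fitted to log2(FPKM + 1) of the 11556 genes that reached 1 FPKM in 4 or more libraries, with Benjamini-Hochberg adjustment, and tested on simulated data. Lines were compared in a fit with 1 mean per line. Implied fragments are the squared ratio of FPKM to its standard error, with the deposited upper bound taken as 2 standard errors above the value; they were whole, within 0.05, for 78.4% to 80.6% of genes with under 100. Replicate numbers are shared by the states; deviations of same-numbered libraries correlated at 0.217, 0.153, 0.185 and 0.514 across genes (highest with another number 0.123, 0.208, 0.208 and −0.215), so a fit with the number as a block was made beside the main one. The numbers come from the sample titles, which do not say that libraries of 1 number belong together. For numbers 2 and 3 the highest correlation was with another number. Shared windows and overlapping genes come from GENCODE vM21 (GRCm38), used for names only.

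The 10 genes, the lists and the tests were chosen with earlier results of these data known. Named genes were the 10; from each list up to 8 called genes with at least a 2-fold change and a mean of at least 5 FPKM in 1 state, and up to 4 genes at a mean of at least 20 FPKM; Tead3 and Vgll1 to Vgll4; the markers; and the 5 genes nearest to Amot. Alternatives were pseudocounts of 0.1 and 5, other filters and scalings, leaving out the variance trend, a replicate block, a random effect of line (correlation 0.47), averaging each line, replicates 1 to 3, and leaving out each library.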

Additional observations from a re-analysis of the deposited data

Results flagged for a closer look

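In 6 of 74 groups of 4 libraries checked, over 37 genes, 1 library stood apart from the other 3 on the log2(FPKM + 1) scale, with a gap of 0.833 to 1.0 of the group's range; chance alone gives about 1 in 20. Yap1 measured 70.2 FPKM in EpiSC5, above the 54.7 to 57.0 FPKM of the other mEpiSC libraries. Stk38 measured 16.7 FPKM in EpiSC9, below the 25.6 to 27.7 FPKM of the other mEpiSC libraries. Mob1a measured 50.9 FPKM in mESC 4, above 28.4 to 31.0 FPKM in the other mESC libraries. In mESC 2, Lhx1 measured 1.51 FPKM, above 0.0214 to 0.0507 FPKM, and Asb4 measured 1.27 FPKM, above 0.175 to 0.283 FPKM. Vgll2 was listed at 0.0179 FPKM in mESC 3 and at 0 in the other mESC libraries.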

How the results depend on the processing

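Of the recalculated log2 differences of single genes 573 kept their direction and their side of the threshold, 55 lost the call, 9 gained it and 4 turned sign, these last near 0 and without a call: Tead1 (main value −0.07) at 0.10 without mEpiSC 4 and 0.06 without mESC 3, and Mob1a (main value −0.12) at 0.07 without mESC 4 and at 0.07 with replicates 1 to 3 only. Leaving out 1 library gave −0.22 to 0.10 for Tead1 and −0.20 to 0.07 for Mob1a. With 1 mean per line the counts were 865 higher and 557 lower genes (main 2665 and 1640), 2 higher of the 10 genes (main 8), 1 higher and 0 lower upstream regulators (main 8 and 3), 1 higher and 0 lower angiomotin partners (main 5 and 2) and 5 higher targets (main 8). A random effect of line gave 1046 lower genes, 4 higher and 1 lower regulators and 1 lower partner. With a mean of at least 5 FPKM they were 1597 higher genes, 5 higher regulators and 4 higher targets, of fewer genes tested. Under quantile normalization 1 of the 10 genes (Tead4) and 1 target (Gadd45a) became lower, as that target did under median ratio scaling (1 lower) and with the replicate block (1 lower). The block also gave 7 higher of the 10 genes and 10 higher targets, and of the calls of the 10 genes ended that of Amotl2 only. Among mEpiSC lines, 2 of the 10 genes were called with a pseudocount of 5, and 1 with quantile normalization and 1 without the trend. The cause of these changes was not tested.

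Leaving out 1 library at a time gave 1904 to 2820 higher and 1209 to 1969 lower genes, 6 to 8 higher and 0 to 1 lower of the 10 genes, 5 to 10 higher and 1 to 4 lower regulators, 4 to 6 higher and 1 to 3 lower partners, and 8 to 9 higher and 0 to 1 lower targets. The 1 lower among the 10 was Tead4 without mEpiSC 1 (log2 −0.90). With replicates 1 to 3 only, 7 of the 10 genes were higher and Amotl2 was not (log2 0.82). Of all calls 61.9% were higher in mEpiSC on the deposited scale, 47.7% with median ratio scaling and 49.8% with quantile normalization. Intervals and implied fragments cover counting and assignment error only; differences of Tead4 and Lats2 rest on the fewest fragments.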
